A study of Mus musculus with 9 samples.

Results

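Whole pancreas of mice that carry a mutant S6k2 allele, RK in the labels (S6k2_RK), was compared with whole pancreas of wild-type littermates (WT). Of the 9 libraries of the study 6 entered the comparison, 3 per group, each from a different mouse aged 8 weeks, and the test covered the 11979 genes that averaged at least 10 normalized counts over those libraries. The third group, a knock-in at Snd1, served only to help estimate the spread between animals. The organ was removed after CO2 and kept frozen, and polyA RNA was sequenced in strand-specific paired-end libraries. S6k2 is the gene Rps6kb2. The residue behind the name RK, the strain, the sex and whether the allele came from 1 founder are not given in the sources used here, and the labels name no cell type to which the allele is restricted.

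S6K2 is a serine/threonine kinase that mTOR complex 1 switches on when amino acids and growth factors are plentiful. With its paralogue S6K1 it phosphorylates ribosomal protein S6, the initiation factor eIF4B and other parts of the translation apparatus. The acinar cells of the exocrine pancreas make digestive enzymes in very large amounts, and for that they depend on a large rough endoplasmic reticulum (ER), on its folding and quality-control proteins and on a steady supply of amino acids. When protein load or amino-acid supply is out of balance, the kinases of the integrated stress response induce the transcription factor ATF4, and the ER sensors IRE1, PERK and ATF6 induce chaperones. The title of the study places S6K2 beside SND1, a Tudor-domain protein that recognises methylated arginine.

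The 6 libraries held 13461427 to 16756099 reads assigned to genes. All 5 defining markers of acinar cells fixed for this check (Cpa1, Cela1, Pnlip, Ptf1a and Rbpjl) had reads in every library. The Y-linked gene Ddx3y had 191 to 265 normalized counts and the X-inactivation RNA Xist had reads in 1 library only, at 0.873 normalized counts, a pattern shared by both groups. Digestive enzymes took 71.4% ± 0.838 of the counts in WT and 76.5% ± 0.915 in S6k2_RK (mean ± SD, n = 3; exact two-sided permutation p = 0.1, the smallest that 3 against 3 allows), and fewer genes had a read in S6k2_RK (15266 to 15928) than in WT (16724 to 17115).

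Compared with WT, 626 genes were higher in S6k2_RK and 842 lower (limma, Benjamini-Hochberg adjusted p below 0.05), which is 5.23% and 7.03% of the genes tested. The groups did not overlap for 3404 genes, or 28.4%. Only 39 of the rises but 514 of the falls exceeded 2-fold. Of those 514 falls, 27 were of genes that averaged at least 100 normalized counts in S6k2_RK, so most were of genes with low counts there. The falls included 130 of the 164 tested genes in 6 lists of blood cells and lymph-node stroma, where high WT counts alone could pass the filter. Both counts changed when 1 library was left out: between 249 genes without S6k2_RK 3 and 869 without S6k2_RK 1 were higher, and between 521 and 1038 were lower without the same libraries.

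The direction of the calls went with the level of the gene. Among the 446 genes that averaged at least 1000 normalized counts 144 were higher and 13 lower, whereas among the 11533 genes below that mean 482 were higher and 829 lower. Of the 49 genes that averaged at least 10000, 23 were higher (46.9%). Of the 2344 genes with a mean of 10 to 30, 13 were higher (0.555%) and 217 lower (9.26%). The share of rises was 14% at a mean of 300 to 1000 and 30.5% at 1000 to 10000. Counts of risen list members below are to be read against the share at their own level. The highest range holds digestive enzymes such as Cpa1, Cela1 and Pnlip, so for the enzymes that share is partly their own. These levels are not divided by gene length, and a change of a given size passes the test less readily at a low count. The median log2 fold change also went with the level, from -0.24 at a mean of 10 to 30 to 0.59 at 10000 or more.

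**Figure D1:**
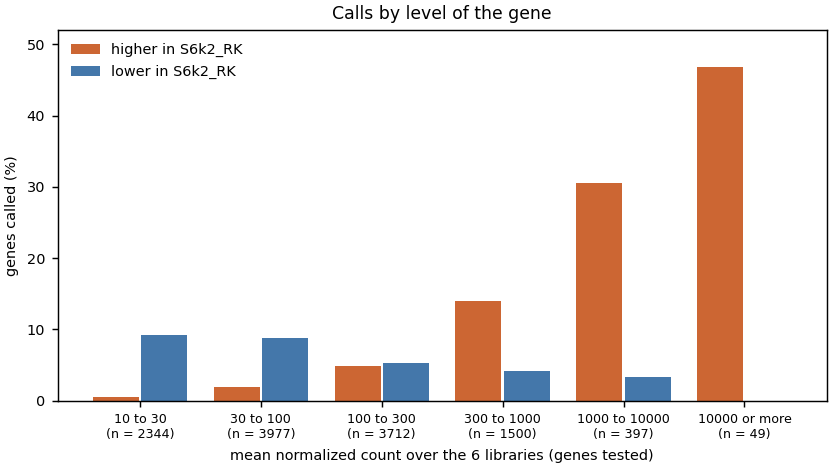
Share of tested genes (percent, vertical axis) that were called higher (orange) or lower (blue) in S6k2_RK than in WT, for 6 ranges of the mean normalized count over the 6 libraries. Rises made up 0.555% of the genes in the lowest range and 46.9% in the highest, while falls went from 9.26% to 3.27% in the range of 1000 to 10000.

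All log2 fold changes are S6k2_RK minus WT under the authors' scaling, where the median gene moved by 0.00062. With all libraries brought to 1 common total the median gene moved by -0.51, so a rise means a rise relative to the median gene. Under the authors' scaling 26 of the 50 lists with at least 5 tested genes had a median above 0. With equal totals only the digestive enzymes did, at 0.097. For rising groups the value with equal totals is therefore given as well.

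The kinase gene itself and its pathway come first. Rps6kb2 (chromosome 19, 4153991 to 4163354, GRCm38) had 55, 65.8 and 53.1 normalized counts in WT 1, 2 and 3 and 56, 25.5 and 24.7 in S6k2_RK 1, 2 and 3. S6k2_RK 2 and 3 lay below the WT libraries and S6k2_RK 1 lay among them, and the difference did not pass (-0.79 ± 0.29 SE, limma adjusted p = 0.0763). Without S6k2_RK 1 it did (-1.17, adjusted p = 0.0055). A changed codon need not alter the transcript, so these counts do not check the labels. The paralogue Rps6kb1 had 503, 429.7 and 427 normalized counts in WT and 402, 385 and 377 in S6k2_RK. Its groups did not overlap, S6k2_RK being lower, and it did not pass either (-0.22 ± 0.11, adjusted p = 0.227).

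Of 56 tested genes of the insulin, mTOR and S6-kinase pathway 10 were higher and 1 lower, with a list median of 0.12 (-0.39 with equal totals). The number of rises ran from 4 without WT 1 to 12 without S6k2_RK 1. Eif4b and Pdcd4 encode S6-kinase substrates that work on the helicase eIF4A, which Pdcd4 inhibits. Pdcd4 (chromosome 19, 53892231 to 53929860) had 750.4, 756 and 784 normalized counts in WT 1, 2 and 3 and 1218, 1134 and 1460.3 in S6k2_RK 1, 2 and 3 (0.73 ± 0.10 SE, limma adjusted p = 0.000231). Eif4b (chromosome 15, 102073773 to 102097173) had 1609.8, 1516 and 1748 in WT and 2283, 2276 and 2472 in S6k2_RK (0.53 ± 0.094, adjusted p = 0.00117). In both genes every S6k2_RK library lay above every WT library, and the change of Eif4b with equal totals was 0.0097.

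Sestrins hold mTOR complex 1 back when amino acids run short, and Sesn1 and Sesn2 moved in opposite directions. Sesn2, the leucine sensor and an ATF4 target, had 49.7, 80.2 and 56.1 normalized counts in WT and 184, 118 and 87.8 in S6k2_RK (1.02 ± 0.26, adjusted p = 0.0153), a call lost without WT 1 or S6k2_RK 1 (highest adjusted p = 0.0735). Sesn1, a p53 target, had 530.5, 611 and 321 in WT and 177, 331 and 174 in S6k2_RK (-1.11 ± 0.23, adjusted p = 0.00362), and S6k2_RK 2 lay just above WT 3. Sesn3 did not pass (0.11 ± 0.26, adjusted p = 0.818). The other rises were those of the mTOR inhibitor Deptor (0.48), the insulin receptor Insr (0.56), Tsc2 of the complex that restrains mTOR (0.57), the 4E-binding protein Eif4ebp1 (0.37), the GTPase Rragd (0.52), Akt1 (0.35) and Rps6. With equal totals 0 genes of the pathway list were called higher and 29 lower. Neither Mtor (0.29 ± 0.18, adjusted p = 0.319) nor Rptor (0.12 ± 0.12, adjusted p = 0.587) passed.

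Snd1 was the 1 called gene among 15 of the SND1 and arginine-methyltransferase list, whose median was -0.027. It had 1906, 1893 and 2180.3 normalized counts in WT 1, 2 and 3 and 2316, 3147 and 2940.5 in S6k2_RK 1, 2 and 3 (0.48 ± 0.12 SE, limma adjusted p = 0.0113; -0.039 with equal totals). The groups did not overlap, and the call was lost without WT 1 or S6k2_RK 2 or 3 (highest adjusted p = 0.0531).

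The translation machinery moved little and unevenly. Of 80 cytosolic ribosomal protein genes 12 were higher and 68 did not pass, and the median was 0.15, against -0.37 with equal totals. Of all tested genes with a mean of 1000 to 10000, the range of this list's average level, 30.5% were higher. The rises numbered from 3 without S6k2_RK 3 to 15 without S6k2_RK 1, and edgeR called 7. Rps6, which encodes the S6-kinase substrate, had 4249, 4407 and 4283 normalized counts in WT 1, 2 and 3 and 5345, 5007 and 6026 in S6k2_RK 1, 2 and 3 (0.34 ± 0.099 SE, limma adjusted p = 0.0322; -0.18 with equal totals). Rpl4 had 6888, 7211 and 6943 in WT and 9473, 9238 and 10781 in S6k2_RK (0.48 ± 0.097, adjusted p = 0.00317; -0.037 with equal totals), and Rpl10 and Rpl6 had changes of 0.50 ± 0.10 and 0.40 ± 0.094 (-0.023 and -0.12 with equal totals). As a share of all counts the list stood at 2.21% ± 0.299 in WT and 1.66% ± 0.261 in S6k2_RK (exact two-sided permutation p = 0.2). Leaving out 1 library ended the call of Rps6 (without any WT library or S6k2_RK 3, highest adjusted p = 0.148) and Rpl6 (without S6k2_RK 3, 0.0534).

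Among initiation factors 10 of 45 were higher (median 0.16; -0.36 with equal totals), 6 of them subunits of eIF3, the scaffold that loads the small ribosomal subunit. Eif3l rose by 0.49 ± 0.11, Eif3a by 0.49 ± 0.11 and Eif3c by 0.43 ± 0.12, and the value of Eif3l with equal totals was -0.031. Among elongation and release factors 5 of 17 were higher (median 0.22; -0.30 with equal totals). Eef2, the translocase that the S6-kinase target eEF2K inhibits, had 13649, 12141 and 15368 normalized counts in WT 1, 2 and 3 and 20244, 22639.5 and 24258 in S6k2_RK 1, 2 and 3 (0.71 ± 0.12 SE, limma adjusted p = 0.000654). All 3 S6k2_RK libraries lay above WT, and the change stayed above 0 with equal totals (0.19). Eef1g, a subunit of the exchange factor of eEF1A, and Tpt1, which encodes translationally controlled tumor protein, rose by 0.45 ± 0.092 and 0.40 ± 0.11 (-0.074 and -0.12 with equal totals). The rises of the initiation list numbered from 4 without WT 1 or S6k2_RK 2 to 11 without S6k2_RK 1, and those of the elongation list from 2 without WT 1 or S6k2_RK 3 to 6 without S6k2_RK 1. The call of Tpt1 was lost without WT 1 or 3 or S6k2_RK 3 (highest adjusted p = 0.093).

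Ribosome biogenesis genes had 2 of 60 higher, Polr1c of RNA polymerases I and III (0.60 ± 0.15) and nucleolin, Ncl (0.33 ± 0.10; -0.19 with equal totals), with a median of -0.086. Mitochondrial ribosomal proteins had 2 of 78 higher, Mrpl2 (0.44 ± 0.14) and Mrps34 (0.48 ± 0.15), both below 0 with equal totals (-0.077 and -0.039). With 1 library left out, which also lowers the power of the test, the call was lost for Polr1c (without WT 3 or S6k2_RK 1 or 3, highest adjusted p = 0.0571), Ncl (without any WT library or S6k2_RK 2 or 3, 0.181), Mrpl2 (without any WT library or S6k2_RK 2 or 3, 0.165) and Mrps34 (without WT 1 or 2 or S6k2_RK 1 or 3, 0.18).

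Of 39 tRNA synthetases 5 were higher (median 0.17; -0.35 with equal totals), from 2 without S6k2_RK 3 to 12 without S6k2_RK 1. Wars1, the tryptophanyl-tRNA synthetase of the cytosol, is very abundant in pancreas. It had 984, 1019.7 and 1024 normalized counts in WT 1, 2 and 3 and 1637, 1766 and 1798 in S6k2_RK 1, 2 and 3 (0.78 ± 0.099 SE, limma adjusted p = 7.98e-05). The WT libraries lay within a narrow range and the S6k2_RK libraries well above it, and the change with equal totals was 0.26. Lars2, the mitochondrial leucyl-tRNA synthetase, had 7444, 6228 and 6543 in WT and 9654, 16438 and 19294 in S6k2_RK (1.11 ± 0.18, adjusted p = 0.000492). The non-coding gene Gm42418, which overlaps a ribosomal RNA repeat on chromosome 17, moved with it (50943, 44782 and 55131 normalized counts in WT and 65899.9, 116175 and 146640.0 in S6k2_RK, 1.05 ± 0.21, adjusted p = 0.00317), and the part of such reads in the Lars2 counts was not tested. Qars1 (0.51 ± 0.13), Kars1 (0.37 ± 0.10) and Gars1 (0.35 ± 0.11) rose less, and Qars1 stood at -0.0065 with equal totals, its call being lost without WT 2 or S6k2_RK 3 (highest adjusted p = 0.0863).

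**Figure D2:**
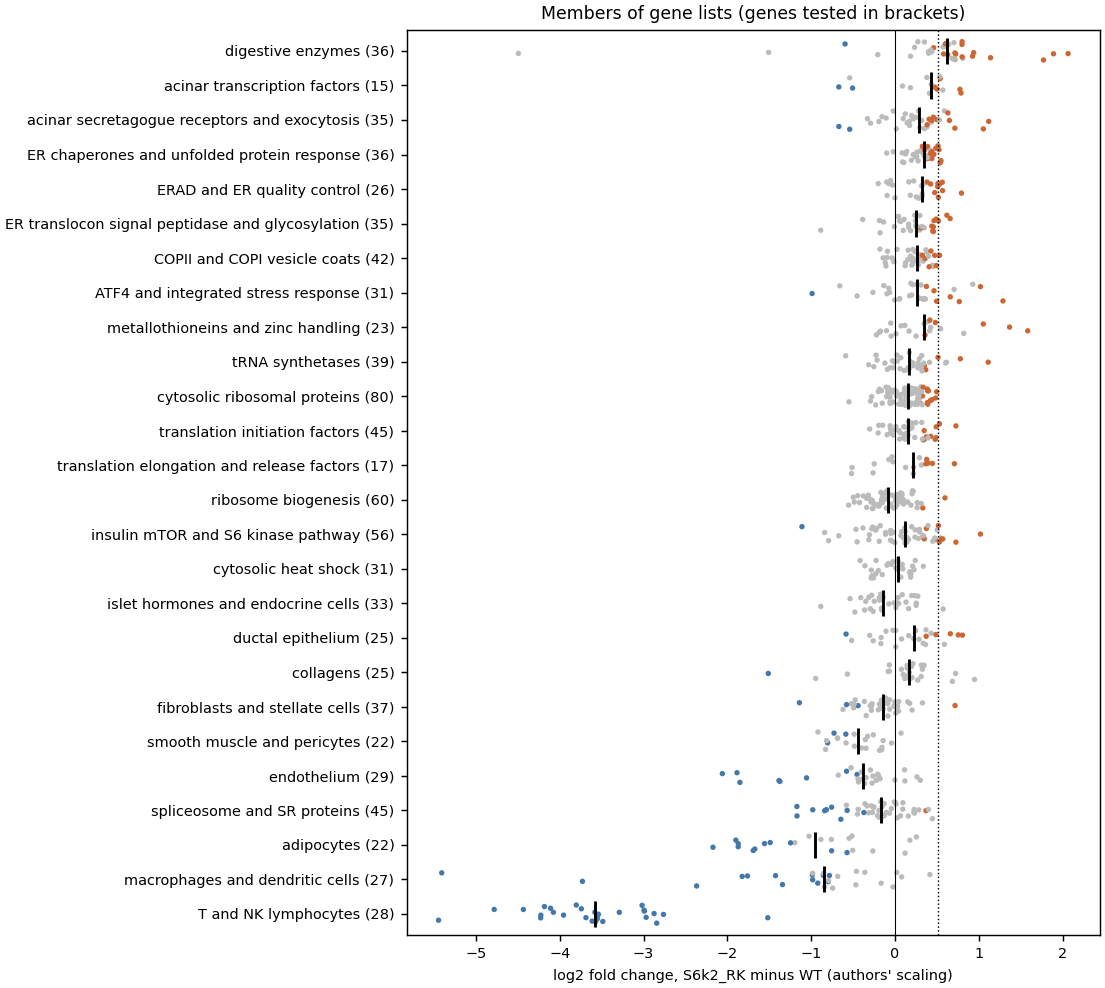
Log2 fold change (S6k2_RK minus WT, authors' scaling) of each tested member of 26 gene lists. Orange points were called higher, blue points lower and grey points did not pass, and the black bar is the list's median. The dotted line marks 0.51, the change that becomes 0 with equal totals: among the medians only that of the digestive enzymes (0.62) lies to its right, and those of adipocytes (-0.96) and T and NK lymphocytes (-3.58) lie far to the left.

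Among the largest rises of abundant transcripts outside the enzymes were those of stress-responsive genes. Nupr1 (chromosome 7, 126623249 to 126630861) encodes a small chromatin protein induced in acinar cells by pancreatitis and by ATF4. It had 9196, 9638 and 9641 normalized counts in WT 1, 2 and 3 and 22393, 21331 and 26038 in S6k2_RK 1, 2 and 3 (1.29 ± 0.14 SE, limma adjusted p = 2.72e-05). The WT libraries lay close together and all S6k2_RK libraries far above them, and with equal totals the change was still 0.77. In the list of ATF4 and the integrated stress response 7 of 31 genes were higher and 1 lower (median 0.26; -0.26 with equal totals), with rises from 4 without S6k2_RK 2 to 9 without S6k2_RK 1. Pck2, the mitochondrial enzyme that makes phosphoenolpyruvate, had 860.3, 877 and 753 in WT and 1153, 1468 and 1324 in S6k2_RK (0.66 ± 0.11, adjusted p = 0.000602). Asns, asparagine synthetase, had 2557, 2739 and 2513 in WT and 3099, 3928 and 3802 in S6k2_RK (0.46 ± 0.10, adjusted p = 0.00611; -0.056 with equal totals). Chac1, which degrades glutathione, rose by 0.77 ± 0.19, and the haem-regulated eIF2alpha kinase Eif2ak1 by 0.50 ± 0.14. The AP-1 repressor Jdp2 fell by 0.99, a call lost in at least 1 fit without a library, as 0 to 2 genes of the list were then lower. Atf4 itself (0.20 ± 0.12, adjusted p = 0.287), Ddit3 (0.70 ± 0.23, adjusted p = 0.0559) and Trib3 (0.93 ± 0.33, adjusted p = 0.0743) did not pass.

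The promoters of these 3 risen genes are shown because each holds a match to the C/EBP-ATF response element, the site that ATF4 dimers bind. Each runs from 250 bases before to 50 after the start of the gene on its own strand (RefSeq, GRCm38.p6), and capitals mark matches to TGATGCAA or TGATGNAAC on either strand.
Nupr1 (chr7:126625421-126625720, minus strand): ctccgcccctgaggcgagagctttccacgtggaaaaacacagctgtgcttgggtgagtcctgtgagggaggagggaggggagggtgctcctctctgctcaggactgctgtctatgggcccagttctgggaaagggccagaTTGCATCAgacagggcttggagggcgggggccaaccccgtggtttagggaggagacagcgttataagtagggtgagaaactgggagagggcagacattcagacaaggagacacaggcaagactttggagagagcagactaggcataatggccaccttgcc
Asns (chr6:7693160-7693459, minus strand): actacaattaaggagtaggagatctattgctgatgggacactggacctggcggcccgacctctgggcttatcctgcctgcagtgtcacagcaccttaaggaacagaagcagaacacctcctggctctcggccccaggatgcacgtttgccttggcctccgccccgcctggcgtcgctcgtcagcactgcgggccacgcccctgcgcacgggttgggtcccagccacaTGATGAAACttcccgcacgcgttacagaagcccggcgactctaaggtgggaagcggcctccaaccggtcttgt
Pck2 (chr14:55540016-55540315, plus strand): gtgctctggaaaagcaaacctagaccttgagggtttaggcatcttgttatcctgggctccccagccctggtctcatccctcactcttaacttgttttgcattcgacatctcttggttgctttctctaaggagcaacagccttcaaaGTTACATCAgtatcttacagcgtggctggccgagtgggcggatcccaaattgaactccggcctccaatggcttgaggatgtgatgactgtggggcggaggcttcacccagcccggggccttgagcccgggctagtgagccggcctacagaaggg
Among all 32851 promoters 1.53% held such a match. Of the 27 tested genes of the list with a listed promoter 10 did, among them 4 of the 6 risen ones and also genes that did not pass. A match is a run of letters and not a measured binding site.

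Genes that supply amino acids moved in small numbers. In serine, glycine and one-carbon synthesis 4 of 24 were higher and 1 lower. Tdh, the threonine dehydrogenase, had 88.1, 108 and 67.9 normalized counts in WT and 243, 154 and 203 in S6k2_RK (1.18 ± 0.21, adjusted p = 0.00148), and Ahcy, which hydrolyses S-adenosylhomocysteine, had 1859, 1908 and 1816 in WT and 2638, 2715 and 2678 in S6k2_RK (0.52 ± 0.089, adjusted p = 0.000871; 0.0041 with equal totals). Mat2a, which makes S-adenosylmethionine outside the liver, fell (-0.56 ± 0.15), while its paralogue Mat1a rose (0.43 ± 0.12). Of 27 amino-acid transporters 3 were higher and 1 lower (median 0.19; -0.33 with equal totals). The glutamine carriers Slc38a3 (0.78 ± 0.11) and Slc38a5 (0.67 ± 0.16) and the related Slc38a10 (0.60 ± 0.12) rose, and Slc6a6, the taurine carrier, fell (-0.57 ± 0.14). Not every call held when 1 library was left out. Among the genes chosen by the naming rule described below, those lost were of Mat2a (without WT 1 or 2 or S6k2_RK 3, highest adjusted p = 0.105) and Slc38a5 (without WT 1 or 2 or S6k2_RK 3, 0.0652). The call of Slc6a6 was lost in at least 1 such fit, as 0 to 1 of the transporters were then lower.

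The metallothioneins, small proteins that bind zinc and copper, had large rises for abundant transcripts. Mt2 (chromosome 8, 94172664 to 94173568) had 3568, 3733 and 2314 normalized counts in WT 1, 2 and 3 and 8892, 8932 and 10451 in S6k2_RK 1, 2 and 3 (1.58 ± 0.15 SE, limma adjusted p = 7.15e-06). Mt1 (chromosome 8, 94179082 to 94180327) had 5105, 5375 and 3533 in WT and 13228, 10256 and 12256 in S6k2_RK (1.37 ± 0.14, adjusted p = 1.85e-05). WT 3 was the lowest library for both genes, and every S6k2_RK library lay above all WT libraries. Together they took 0.0606% ± 0.0143 of the counts in WT and 0.115% ± 0.0157 in S6k2_RK (exact two-sided permutation p = 0.1). Slc30a2, the transporter that loads zinc into zymogen granules, had 164, 136 and 174 in WT and 386, 334 and 272 in S6k2_RK (1.05 ± 0.16, adjusted p = 0.000319). With equal totals the 3 changes were 1.06, 0.85 and 0.54.

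In the whole list of metallothioneins and zinc handling 6 of 23 genes were higher (median 0.35; -0.17 with equal totals), from 3 without S6k2_RK 2 to 9 without S6k2_RK 1. The other risen members were the zinc importers Slc39a11 (0.42 ± 0.10), Slc39a5 (0.36 ± 0.097) and Slc39a8 (0.48 ± 0.14; -0.037 with equal totals). The call of Slc39a8 was lost without WT 1 or 3 or S6k2_RK 2 or 3 (highest adjusted p = 0.118).

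The promoters of the metallothionein pair carry several copies of the metal response element, the site of the zinc sensor MTF1, and are shown for that reason (RefSeq, GRCm38.p6, plus strand). Capitals mark matches to TGCACNC or TGCGCNC on either strand.
Mt2 (chr8:94172368-94172667, plus strand): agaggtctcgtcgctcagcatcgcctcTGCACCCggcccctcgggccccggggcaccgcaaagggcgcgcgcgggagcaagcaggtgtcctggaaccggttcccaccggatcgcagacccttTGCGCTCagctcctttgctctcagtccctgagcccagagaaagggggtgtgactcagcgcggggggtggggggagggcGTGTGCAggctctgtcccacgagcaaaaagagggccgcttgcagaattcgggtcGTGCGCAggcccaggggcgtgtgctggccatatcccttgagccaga
Mt1 (chr8:94178839-94179138, plus strand): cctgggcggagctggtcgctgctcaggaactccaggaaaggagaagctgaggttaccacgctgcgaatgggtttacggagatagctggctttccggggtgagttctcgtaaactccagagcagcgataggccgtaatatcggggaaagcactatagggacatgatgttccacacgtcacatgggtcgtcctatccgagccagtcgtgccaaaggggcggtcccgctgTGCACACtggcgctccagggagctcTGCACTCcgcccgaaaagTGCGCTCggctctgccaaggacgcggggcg
Mt2 held 4 matches and Mt1 3. The motif is short and 25.7% of all promoters held at least 1. In this list 11 of the 19 genes with a promoter did, and 6 of the 6 risen ones.

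Part of the genes in 4 lists of the secretory pathway were higher under the authors' scaling, and most did not pass. With equal totals 0 were higher and 8, 9, 16 and 17 were lower, in the order in which the lists follow. Of 36 ER chaperones and unfolded-protein-response genes 15 were higher (median 0.35; -0.17 with equal totals), from 5 without WT 1 or S6k2_RK 2 to 23 without S6k2_RK 1. Xbp1, the transcription factor spliced by IRE1, had 3417, 3225 and 3240.5 normalized counts in WT 1, 2 and 3 and 4686, 4321 and 5411 in S6k2_RK 1, 2 and 3 (0.54 ± 0.10 SE, limma adjusted p = 0.00163; 0.019 with equal totals). Sil1, the exchange factor of the chaperone BiP, rose by 0.55 ± 0.11, and Erp27, a disulfide-isomerase relative of the pancreas, by 0.44 ± 0.094 (-0.081 with equal totals). The disulfide isomerases Pdia6 (0.52 ± 0.12) and P4hb (0.51 ± 0.11) and the sensor Atf6 (0.49 ± 0.12) rose as well. Hspa5, which encodes BiP, did not pass (0.38 ± 0.14, adjusted p = 0.0841), nor did Hsp90b1 (0.37 ± 0.14, adjusted p = 0.0958). As a share of all counts this list stood at 0.466% ± 0.0199 in WT and 0.43% ± 0.03 in S6k2_RK (exact two-sided permutation p = 0.3).

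ER-associated degradation and quality control had 10 of 26 genes higher (median 0.32; -0.20 with equal totals), from 6 without WT 2 to 14 without S6k2_RK 1. Derl3 (chromosome 10, 75893413 to 75895941), a derlin of secretory cells that carries misfolded proteins out of the ER, had 660.5, 585 and 795 normalized counts in WT 1, 2 and 3 and 1004, 1296 and 1228 in S6k2_RK 1, 2 and 3 (0.79 ± 0.13 SE, limma adjusted p = 0.000823). WT 3 was the highest WT library and still lay below the lowest S6k2_RK library. The ubiquitin ligase Syvn1 (0.51 ± 0.12) and its partner Sel1l (0.52 ± 0.15), the lectins Os9 (0.53 ± 0.12) and Erlec1 (0.51 ± 0.11), the mannosidase-like Edem2 (0.47 ± 0.10; -0.047 with equal totals), the signal-peptide peptidase H13 (0.56 ± 0.11) and the folding sensor Uggt1 (0.57 ± 0.13) rose.

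The promoter of Derl3 is shown because it holds the bipartite ER stress response element, CCAAT and CCACG with 9 bases between (RefSeq, GRCm38.p6). Capitals mark the match, which is on the opposite strand here. Of all promoters 0.119% held the element.
Derl3 (chr10:75893148-75893447, plus strand): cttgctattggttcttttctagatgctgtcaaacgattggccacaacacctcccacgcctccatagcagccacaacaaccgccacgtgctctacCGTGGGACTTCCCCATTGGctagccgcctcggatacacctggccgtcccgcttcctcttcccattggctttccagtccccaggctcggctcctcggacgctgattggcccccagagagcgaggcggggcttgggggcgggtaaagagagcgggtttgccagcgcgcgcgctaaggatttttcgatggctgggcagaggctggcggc
Syvn1 was the other gene of this list with the element, out of 22 with a listed promoter.

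The translocon, signal peptidase and glycosylation list had 10 of 35 higher (median 0.25; -0.27 with equal totals), from 4 without S6k2_RK 3 to 16 without S6k2_RK 1. Stt3a, a catalytic subunit of the oligosaccharyltransferase, rose by 0.66 ± 0.12, its partner Rpn2 by 0.62 ± 0.12 and Srp68 of the signal recognition particle by 0.49 ± 0.11 (-0.028 with equal totals). Of 42 genes of COPII and COPI coats 8 were higher (median 0.26; -0.26 with equal totals), from 1 without S6k2_RK 3 to 15 without S6k2_RK 1. Of all tested genes with a mean of 300 to 1000, the range of this list's average level, 14% were higher. Mia2, a cargo receptor at ER exit sites, rose by 0.53 ± 0.11, the cargo receptor Tmed10 by 0.50 ± 0.12 and the coat subunit Copz2 by 0.41 ± 0.10. With equal totals the latter pair stood at -0.025 and -0.11. With 1 library left out the test no longer called Tmed10 (without S6k2_RK 3, highest adjusted p = 0.0566) and Copz2 (without WT 1 or S6k2_RK 3, 0.069).

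Other stress programmes showed few calls. In the cytosolic heat-shock list 0 of 31 genes were called (limma; 3 higher and 2 lower at an unadjusted p under 0.05; edgeR and DESeq2 each called 1, lower). NRF2 and oxidative-stress genes had 4 of 33 higher: Prdx4, the peroxiredoxin of the ER (0.59 ± 0.095), the glutathione transferase Gstm1 (0.40 ± 0.10; -0.12 with equal totals), Gclm of glutathione synthesis (0.40 ± 0.13; -0.12) and catalase, Cat (0.33 ± 0.10). Of 25 p53 targets 2 were higher, Sesn2 and the kinase Plk2 (401, 364 and 473 normalized counts in WT and 672, 731 and 831 in S6k2_RK, 0.85 ± 0.15, adjusted p = 0.00105), and 2 lower, Sesn1 and Gadd45b (-0.83 ± 0.22). The proteasome list had 1 of 34 lower, Psma7 (-0.44 ± 0.14). Autophagy and lysosome genes had 6 of 45 higher, with Atg13 (0.53 ± 0.12) and Atg9a (0.73 ± 0.18) of the initiation machinery among them, and 2 lower, the sphingolipid activator precursor Psap (-0.64 ± 0.12) and the protease Ctsh (-0.77 ± 0.20). Besides Sesn2, calls of genes under the naming rule that were lost with 1 library left out were those of Gstm1 (without WT 2 or S6k2_RK 3, highest adjusted p = 0.0625), Gclm (without WT 2 or 3 or S6k2_RK 2 or 3, 0.172) and Psma7 (without WT 1 or 2 or S6k2_RK 2 or 3, 0.216). Other calls were lost as well. In those fits the NRF2 list had 1 to 4 rises, and the p53 and autophagy lists had 1 to 2 falls each.

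**Figure D3:**
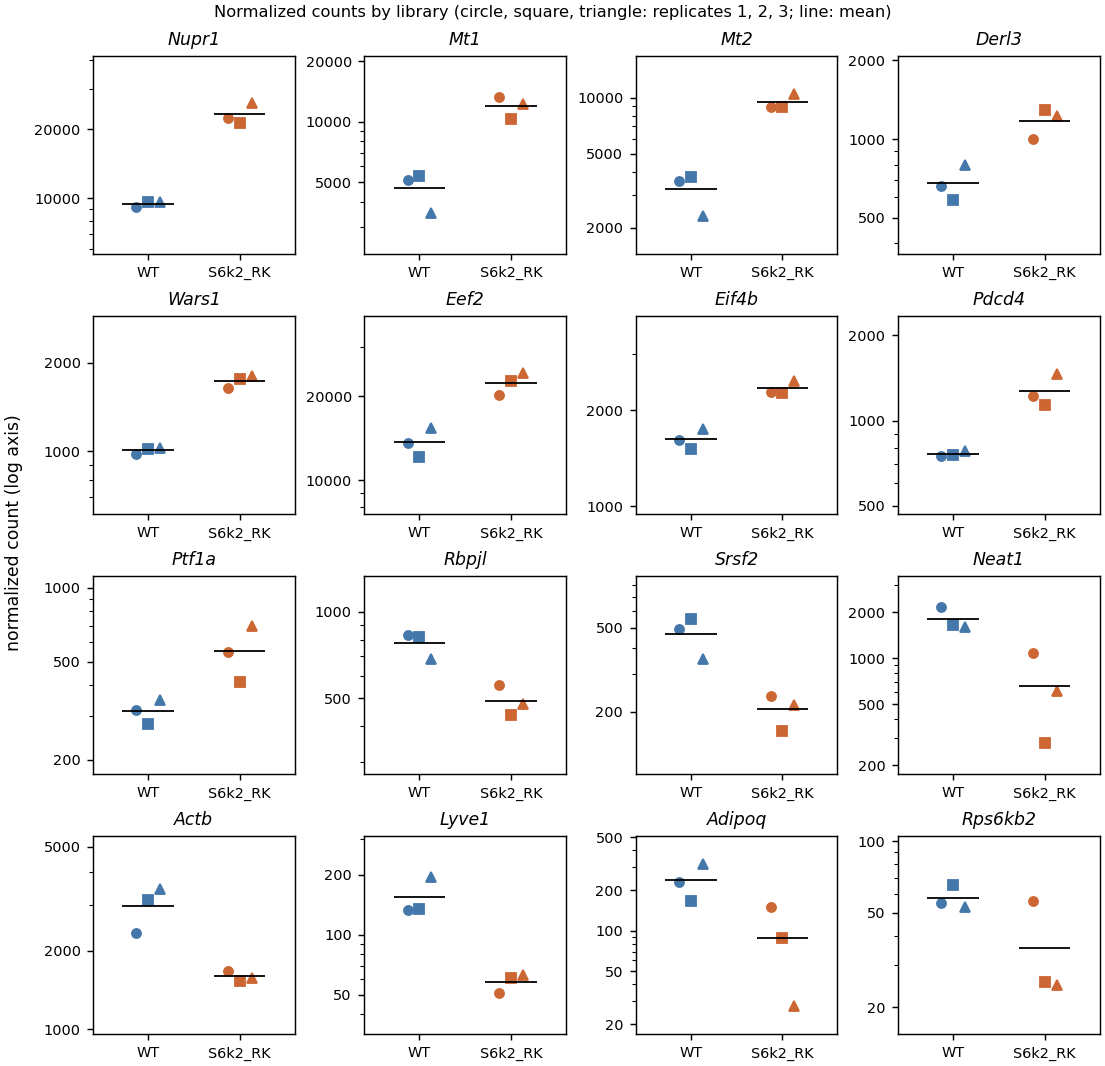
Normalized count of 16 genes in each library (vertical log axes that differ between panels; WT blue, S6k2_RK orange; circles, squares and triangles are replicates 1, 2 and 3, and lines are group means). The groups do not overlap for the panels shown except Rps6kb2, where S6k2_RK 1 (56.0) lies among the WT libraries.

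Among acinar genes part of the enzymes were called higher and the acinar regulators split. Of 36 digestive-enzyme and zymogen-granule genes 17 were higher and 1 lower by limma (median 0.62; 0.097 with equal totals), with rises from 9 without WT 1 to 28 without S6k2_RK 1. Of the 49 tested genes with a mean of at least 10000, the range of this list's average level, 46.9% were higher. Enzymes of the list belong to that range, so the share is no independent measure for them. edgeR called 26 higher and DESeq2 27, whereas limma called 10 without the filter on low counts and, with equal totals, 7 higher and 3 lower. Pla2g1b, the secreted phospholipase, had 13942, 14678 and 14642 normalized counts in WT 1, 2 and 3 and 22784, 27092 and 33186 in S6k2_RK 1, 2 and 3 (0.92 ± 0.13 SE, limma adjusted p = 0.000131). Pnliprp2, a lipase of galactolipids, had 55703, 49099 and 62852 in WT and 93432, 109436 and 118388 in S6k2_RK (0.94 ± 0.15, adjusted p = 0.000424). Both kept their rise with equal totals (0.40 and 0.42). The bile-salt lipase Cel (0.80 ± 0.24), Rnase1 (0.63 ± 0.18), Ctrl, a chymotrypsin-like protease (0.61 ± 0.19), the trypsin inhibitor Spink1 (0.71 ± 0.13) and the granule protein Sycn (0.80 ± 0.14) rose. The elastase Cela3a was the 1 that fell by limma (-0.60 ± 0.16, adjusted p = 0.0234), and edgeR called 2 lower. The Cela3a call was lost in at least 1 fit without a library, as 0 to 1 of the list were then lower. The amylase copy Amy2a2 had a larger estimate that did not pass, with 357, 10545 and 1.97 normalized counts in WT and 8, 0 and 108 in S6k2_RK (-4.49 ± 2.01, adjusted p = 0.156), and its libraries overlapped over a wide range.

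The trypsinogens Try5 (288549, 285504 and 282093 normalized counts in WT and 537943, 543001 and 850749 in S6k2_RK, 1.14 ± 0.22, adjusted p = 0.00219), Try4, Try10, Prss3 and Prss3l were higher too, and Prss1 by 1.89 ± 0.55. These genes share reads with near-identical copies, and how the authors divided such reads is not given in the sources used here, so single members are uncertain. Without amylase and trypsinogen copies the enzymes took 64% ± 0.753 of counts in WT and 67.4% ± 0.842 in S6k2_RK (exact two-sided permutation p = 0.1). Leaving out 1 library ended the call of Cel (without WT 1 or 2 or S6k2_RK 2 or 3, highest adjusted p = 0.144), Ctrl (without any WT library or S6k2_RK 2 or 3, 0.18), Rnase1 (without WT 1 or 2 or S6k2_RK 2 or 3, 0.126) and Prss1 (without WT 1 or S6k2_RK 3, 0.122).

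The PTF1 complex drives the enzyme genes through Ptf1a, a class I helix-loop-helix partner such as Tcf3, and Rbpjl. Its parts moved in opposite directions. Ptf1a (chromosome 2, 19445663 to 19447501) had 318, 280.1 and 349 normalized counts in WT 1, 2 and 3 and 545, 412 and 695 in S6k2_RK 1, 2 and 3 and rose (0.77 ± 0.16 SE, limma adjusted p = 0.00326). Rbpjl (chromosome 2, 164403141 to 164415448) had 833, 815 and 686 in WT and 555, 436 and 476 in S6k2_RK and fell (-0.67 ± 0.12, adjusted p = 0.00109). For both genes the groups did not overlap. Tcf3 fell as well by limma (-0.51 ± 0.16, adjusted p = 0.0408), a call lost with DESeq2, which called only Rbpjl lower among the acinar transcription factors. Limma without the filter on low counts or with only the 6 libraries called 1 of them lower. With 1 library left out 1 to 2 were lower. Among the other rises, Creb3l1, a membrane-bound transcription factor of secretory cells, had 341, 266 and 362 in WT and 438, 676 and 571 in S6k2_RK (0.79 ± 0.15, adjusted p = 0.00223), and the nuclear receptor Nr5a2 and the GATA factor Gata4 rose by 0.50 ± 0.11 and 0.47 ± 0.14. In all 5 of 15 acinar transcription factors were higher and 2 lower (median 0.43; -0.084 with equal totals), from 4 without WT 1 or S6k2_RK 3 to 6 without WT 3 or S6k2_RK 1 or S6k2_RK 2. Bhlha15, which encodes MIST1, did not pass (0.088 ± 0.12, adjusted p = 0.67).

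In the list of secretagogue receptors and exocytosis 10 of 35 were higher and 2 lower (median 0.28; -0.24 with equal totals), from 8 without WT 1 or S6k2_RK 3 to 14 without S6k2_RK 1. The aquaporin Aqp12 of acinar cells had 2045, 2075 and 2238 normalized counts in WT and 2989.9, 3427 and 3574 in S6k2_RK (0.65 ± 0.098, adjusted p = 0.000322). A second acinar aquaporin, Aqp8, had 113, 105 and 107 in WT and 207, 212 and 300.5 in S6k2_RK (1.12 ± 0.20, adjusted p = 0.00118). Cckar, the receptor of cholecystokinin, rose by 0.50 ± 0.11, the granule GTPase Rab3d by 0.46 ± 0.098, the gap-junction protein Gjb2 by 0.71 ± 0.14 and the serpin Serpini2 by 0.63 ± 0.12. Tmed11 (-0.67 ± 0.19), a cargo receptor, and Itpr1 (-0.54 ± 0.15), a calcium channel of the ER, fell. Neither call held in every fit without a library, as 0 to 3 genes of the list were then lower.

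Genes of acinar injury and metaplasia did not move as a group: 6 of 30 were higher, 3 lower, and the median was -0.039. Besides Nupr1 the rises were the mucin Muc1 (975, 968 and 957 normalized counts in WT and 1527, 1679 and 1876 in S6k2_RK, 0.80 ± 0.099, adjusted p = 6.74e-05), the keratin Krt18 (1234, 1258 and 1234 in WT and 1833, 2029 and 2032 in S6k2_RK, 0.66 ± 0.094, adjusted p = 0.000204), Clu, a secreted chaperone (0.65 ± 0.14), Myc (0.44 ± 0.13) and Tff2 (0.37 ± 0.11), a trefoil peptide. Vim (-0.54 ± 0.15), the intermediate filament of mesenchyme and blood cells, Anxa2 (-0.63 ± 0.16) and Tm4sf4 (-0.55 ± 0.16) fell. None of these 3 falls held in every fit without a library, as 0 to 5 genes of the list were then lower. Of 25 ductal genes 5 were higher and 1 lower (median 0.22; -0.30 with equal totals). These were Muc1, Krt18, Epcam (0.49 ± 0.14) and the claudins Cldn7 (0.75 ± 0.18) and Cldn3 (0.37 ± 0.11), which epithelial cells share, while the defining duct markers Cftr (0.16 ± 0.51, adjusted p = 0.873) and Krt19 (0.34 ± 0.13, adjusted p = 0.0884) did not pass. Ambp fell (-0.58 ± 0.16), a call lost in at least 1 fit without a library, as 0 to 1 ductal genes were then lower. The call of Cldn7 was lost without S6k2_RK 3 (adjusted p = 0.0509).

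Islet genes did not pass in either direction: 0 of 33 were called by limma, edgeR or DESeq2, with 1 higher and 1 lower at an unadjusted p under 0.05 (median -0.14). Ins2, insulin, had 27316, 30612 and 28206 normalized counts in WT and 27114, 18409.5 and 33713 in S6k2_RK (-0.16 ± 0.19, adjusted p = 0.634), with the lowest and the highest library both in S6k2_RK. Gcg, glucagon, had 2529, 3945 and 3001 in WT and 2829, 2136 and 5059 in S6k2_RK (0.01 ± 0.26, adjusted p = 0.984). As a share of counts the islet hormones stood at 0.384% ± 0.0302 in WT and 0.246% ± 0.0693 in S6k2_RK (exact two-sided permutation p = 0.1). In cell-cycle genes 0 of 24 were called by these tools (1 higher and 1 lower at an unadjusted p under 0.05). Of 12 histone genes 3 rose. The linker histone H1f2 (chromosome 13, 23738808 to 23740367) had 205, 139 and 220.3 normalized counts in WT 1, 2 and 3 and 571, 518 and 477 in S6k2_RK 1, 2 and 3 (1.49 ± 0.19 SE, limma adjusted p = 7.64e-05), a rise that remained at 0.97 with equal totals. The replacement histones H3f3b and H1f0 rose by 0.55 ± 0.096 and 0.43 ± 0.092, and H1f0 stood at -0.093 with equal totals.

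The non-epithelial cells of the organ were compared next. In ground tissue fewer cells of a type and less RNA per cell cannot be told apart. Blood-cell markers were far lower in S6k2_RK and are given first because they bear on the lists that follow. All 28 tested T- and NK-cell genes were lower, and 25 of 27 B- and plasma-cell genes. The filter took the mean over both groups, so a gene low in S6k2_RK was tested only where WT was high. In each of the 2 lists 7 further genes were not tested. These counts of falls therefore describe the tested genes and are no test of the lists. The summed normalized counts of the T- and NK-cell list were 792, 2241 and 1815 in WT and 165, 133 and 145 in S6k2_RK, and those of the B- and plasma-cell list 2179.5, 4772 and 4171 in WT and 549, 1414 and 355 in S6k2_RK. The lymph-node list had 10 of 19 lower and 2 higher. Glycam1, made by high endothelial venules, had 76.8, 258 and 172 normalized counts in WT and 0 in every S6k2_RK library. Cxcl13, the chemokine of B-cell follicles, had 123, 114 and 156 in WT and 9, 183 and 28.4 in S6k2_RK, so that S6k2_RK 2 lay above every WT library. Cd3e, a chain of the T-cell receptor complex, was detected in all libraries, at 1.24 to 2.68 in S6k2_RK against 14.8 to 50.4 in WT.

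Macrophage and dendritic-cell genes had 13 of 27 lower (median -0.84), from 7 without WT 3 or S6k2_RK 3 to 13 without WT 2 or S6k2_RK 1 or S6k2_RK 2. Within them the size of the fall differed widely. Marco and Cd209b, receptors of macrophages of lymphoid organs, fell (-5.41 ± 0.35 and -3.73 ± 0.31). The complement genes C1qa, C1qb and C1qc and the receptor Csf1r, which tissue macrophages share, fell by 0.92, 0.99, 0.86 and 0.8. Adgre1, which encodes the macrophage antigen F4/80, had a change of -0.74 ± 0.31, adjusted p = 0.13, and Mrc1, the mannose receptor, of -0.46 ± 0.18, adjusted p = 0.11.

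Part of the adipocyte genes were lower: 11 of 22 fell (median -0.96), from 2 without WT 3 or S6k2_RK 3 to 16 without S6k2_RK 1. edgeR called 6 of the 22 lower, DESeq2 4 and limma's robust fit 3. The summed normalized counts of the list were 9274, 6968 and 11538 in WT and 8386, 5160.0 and 4006 in S6k2_RK, so that S6k2_RK 1 lay above WT 2. Adipoq, adiponectin (chromosome 16, 23146536 to 23158028), had 232, 166 and 318 normalized counts in WT 1, 2 and 3 and 149.9, 88.6 and 27.2 in S6k2_RK 1, 2 and 3 (-1.67 ± 0.40 SE, limma adjusted p = 0.0114). Its call was lost with DESeq2 (adjusted p = 0.109) and with the robust fit (0.166). The libraries of S6k2_RK were spread widely, with replicate 3 lowest, and all lay below WT. The lipid-droplet protein Plin1 had 118, 66.7 and 162 in WT and 91, 33.5 and 7.42 in S6k2_RK (-1.87 ± 0.56, adjusted p = 0.0339), with S6k2_RK 1 among the WT libraries, and the complement factor Cfd had 547, 343 and 1028 in WT and 307, 266 and 91.5 in S6k2_RK (-1.56 ± 0.39, adjusted p = 0.0148). Retn (-1.90 ± 0.56) and Lep (-1.87 ± 0.49), hormones of fat, and the desaturase Scd1 (-1.25 ± 0.35) fell, while Lpl (0.18 ± 0.13, adjusted p = 0.414) and Pparg (0.26 ± 0.27, adjusted p = 0.588), which other cells also express, did not pass. The call of Cfd was lost without WT 3 or S6k2_RK 3 (highest adjusted p = 0.0877).

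Lipid-synthesis genes moved in both directions. In the fatty-acid and triglyceride list 7 of 25 fell (DESeq2 called 4) and 3 rose. Thrsp (-2.17 ± 0.42), Dgat2 (-1.37 ± 0.37), Scd1, Me1 (-1.01 ± 0.28) and Mlxipl (-0.85 ± 0.24), which adipose tissue expresses strongly, fell. The fatty-acid desaturases Fads1 (579, 495 and 609.7 normalized counts in WT and 699, 974 and 824 in S6k2_RK, 0.56 ± 0.12, adjusted p = 0.00634) and Fads2 (0.64 ± 0.17) and the acetyl-CoA carboxylase Acacb (0.70 ± 0.17) rose. Whether adipocytes attached to the organ contribute to these falls was not tested. In sterol synthesis the escort protein Scap (0.54 ± 0.13) and Fdft1 (0.40 ± 0.13; -0.11 with equal totals) rose. Among the genes above under the naming rule, calls lost with 1 library left out were those of Acacb (without WT 2 or S6k2_RK 2, highest adjusted p = 0.0669), Scap (without WT 1, 0.0678) and Fdft1 (without any WT library or S6k2_RK 2 or 3, 0.156). Other calls were lost as well, as the fatty-acid and triglyceride list had 1 to 8 falls and 1 to 3 rises in those fits.

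Endothelial genes had 8 of 29 lower (median -0.38), from 5 without WT 3 to 9 without S6k2_RK 1. Several of these were genes of lymphatic vessels. Lyve1, the hyaluronan receptor of lymphatic endothelium (chromosome 7, 110850607 to 110863239), had 133, 135 and 195 normalized counts in WT 1, 2 and 3 and 51, 60.4 and 63.1 in S6k2_RK 1, 2 and 3 (-1.37 ± 0.18 SE, limma adjusted p = 0.000115), and the S6k2_RK libraries lay close together below WT. Ccl21a, the chemokine of lymphatics and lymph-node stroma, had 143, 360.3 and 286 in WT and 131, 45.6 and 50.7 in S6k2_RK (-1.85 ± 0.34, adjusted p = 0.00161), and Flt4, the receptor of lymphatic growth factors, and Mmrn1 fell by 1.39 and 1.89 on the log2 scale. Ccl21a reads may be shared with near-identical copies. The lymphatic regulator Prox1, which some epithelial cells of the organ also express, did not pass (-0.53 ± 0.20, adjusted p = 0.0884). Among genes of blood vessels the tight-junction claudin Cldn5 (-2.06 ± 0.44), Egfl7 (-1.06 ± 0.30), Pecam1 (704, 682 and 884 normalized counts in WT and 599, 427 and 497 in S6k2_RK, -0.58 ± 0.13, adjusted p = 0.00807) and Eng (-0.45 ± 0.13) fell, whereas Cdh5 (-0.29 ± 0.19, adjusted p = 0.33), Kdr (0.11 ± 0.16, adjusted p = 0.696), Tek (-0.26 ± 0.16, adjusted p = 0.311) and Vwf (-0.27 ± 0.16, adjusted p = 0.297) did not pass. The lymph-node markers above moved with these falls, and their part in them was not tested.

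Few genes of the fibrous stroma were called. Of 25 collagen genes 1 was called, Col12a1, which fell (-1.51 ± 0.42), and the median was 0.17 (-0.35 with equal totals). That call was lost in at least 1 fit without a library, as 0 to 2 collagens were then lower. Col1a1 had 574, 353 and 700.2 normalized counts in WT and 792, 660.3 and 477 in S6k2_RK (0.27 ± 0.20, adjusted p = 0.416), Col3a1 2693, 1549 and 2756 in WT and 3588, 3091 and 2135 in S6k2_RK (0.35 ± 0.20, adjusted p = 0.274), and both groups overlapped in each. Collagens took 0.0642% ± 0.0168 of counts in WT and 0.0522% ± 0.0134 in S6k2_RK (exact two-sided permutation p = 0.3). Among 37 genes of fibroblasts and stellate cells 3 fell and 1 rose (median -0.14). Cxcl12, a chemokine of stroma, fell by 0.58, Timp3, an inhibitor of matrix proteases, by 0.44 and Thy1, which T cells also carry, by 1.14 on the log2 scale, while the fibrillin Fbn1 rose (0.72 ± 0.19). The rise of Fbn1 was lost in at least 1 fit without a library, as 0 to 1 of the list were then higher. The platelet-derived growth factor receptors Pdgfra (0.041 ± 0.19, adjusted p = 0.917) and Pdgfrb (0.33 ± 0.17, adjusted p = 0.238) did not pass.

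Smooth-muscle and pericyte genes had 3 of 22 lower (median -0.44), from 0 without S6k2_RK 3 to 5 without S6k2_RK 2. These were contractile genes: the actin Acta2 (334, 342 and 316 normalized counts in WT and 196, 256 and 157 in S6k2_RK, -0.73 ± 0.18, adjusted p = 0.0119), Tagln (-0.80 ± 0.20) and the myosin kinase Mylk (-0.59 ± 0.15). The pericyte marker Rgs5 (-0.14 ± 0.20, adjusted p = 0.695) did not pass. Not every call held when 1 library was left out. Among the smooth-muscle and fibroblast genes under the naming rule, those lost were of Acta2 (without S6k2_RK 3, highest adjusted p = 0.0762), Tagln (without WT 1 or 2 or S6k2_RK 3, 0.0879), Mylk (without WT 1 or 3 or S6k2_RK 3, 0.0797), Timp3 (without WT 1 or 2 or S6k2_RK 3, 0.0996) and Thy1 (without WT 2 or 3 or S6k2_RK 2, 0.0705). The Schwann-cell list had 1 of 6 lower, Pmp22 (-0.71 ± 0.18), and the mesothelial list 1 of 16 higher, the zinc importer Slc39a8 named above. The Pmp22 call was lost without WT 1 or S6k2_RK 3 (highest adjusted p = 0.0869).

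**Figure D4:**
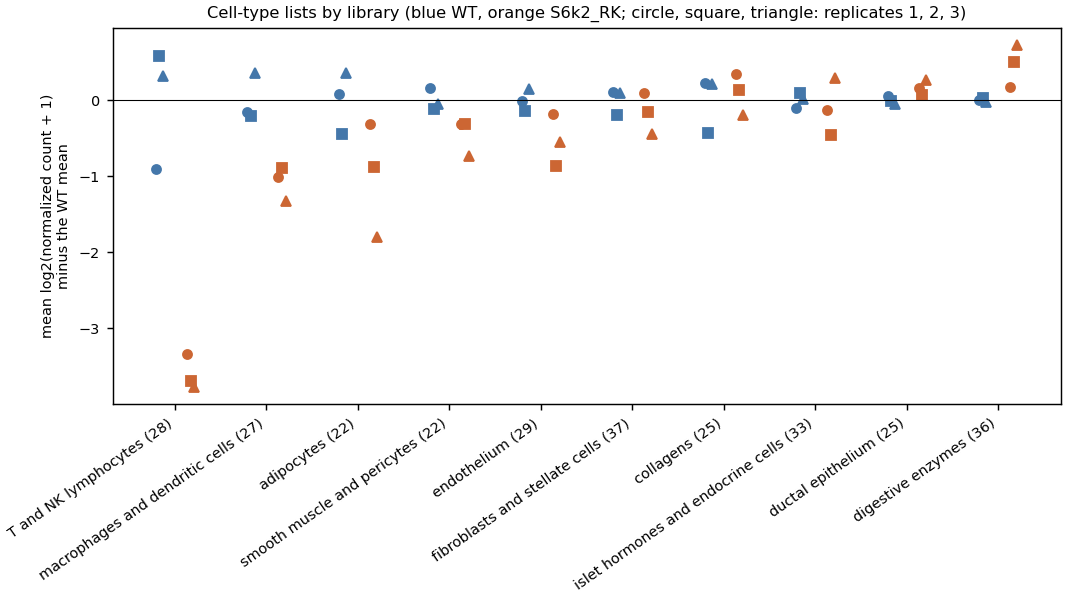
Mean log2(normalized count + 1) of the tested genes of 10 cell-type lists in each library, minus the mean of the WT libraries (WT blue, S6k2_RK orange; circles, squares and triangles are replicates 1, 2 and 3; the number of genes is in brackets). T and NK lymphocytes stand apart from the rest with a list median of -3.58, adipocytes are spread most among the S6k2_RK libraries, and collagens and islets overlap between the groups.

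Among the most abundant or the largest falls were cytoskeletal genes that blood cells express strongly. Actb, the cytoplasmic beta-actin (chromosome 5, 142903115 to 142906754), had 2329.6, 3140.2 and 3432 normalized counts in WT 1, 2 and 3 and 1675, 1538 and 1578 in S6k2_RK 1, 2 and 3 (-0.88 ± 0.12 SE, limma adjusted p = 0.000137). The groups did not overlap. Tmsb10, a thymosin that binds actin monomers, had 558, 834 and 799 in WT and 367, 199 and 265 in S6k2_RK (-1.42 ± 0.19, adjusted p = 0.000137), and Lcp1, the plastin of blood cells, had 287, 523 and 508 in WT and 181, 203 and 145 in S6k2_RK (-1.28 ± 0.19, adjusted p = 0.000322). Apoe, made by macrophages and other cells, had 2906, 2572 and 3644 in WT and 1987, 1614 and 1444 in S6k2_RK (-0.85 ± 0.14, adjusted p = 0.000837). The transplantation antigen H2-D1 fell by 0.45 on the log2 scale, a call lost without WT 3 or S6k2_RK 3 (highest adjusted p = 0.085). Ets1 (-1.23 ± 0.19), a transcription factor of lymphocytes and endothelium, Mpeg1 (-1.18 ± 0.19), a pore-forming protein of macrophages, and Gpsm1 (-1.24 ± 0.27), a regulator of G-protein subunits, were among the 15 largest falls outside the blood-cell lists for genes that averaged at least 100 normalized counts in S6k2_RK. Actg1, the other cytoplasmic actin, did not pass (-0.14 ± 0.11, adjusted p = 0.435). The part of blood cells in these falls was not tested.

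Interferon-stimulated genes had 7 of 26 lower (median -0.34), from 3 without WT 2 to 6 without WT 1 or S6k2_RK 1 or S6k2_RK 2. Irf8 (-2.62 ± 0.31), a factor of B cells and dendritic cells, Irf1 (-1.01 ± 0.19), the GTPases Gbp7 (-1.30 ± 0.31), Iigp1 (-1.14 ± 0.28) and Igtp (-1.34 ± 0.36) and the chemokine Cxcl9 (-3.57 ± 0.87) fell, and the blood-cell markers moved with them. Of 25 immediate-early genes 3 fell, Klf2 (-1.02 ± 0.20), Ier5 (-0.93 ± 0.25) and Zfp36 (-0.64 ± 0.18), and 1 rose, Myc. The rise of Myc was lost in at least 1 fit without a library, as 0 to 1 of these genes were then higher. Jun (-0.093 ± 0.16, adjusted p = 0.749) and Egr1 (0.66 ± 0.38, adjusted p = 0.275) did not pass. With 1 library left out the test no longer called Gbp7 (without WT 2 or S6k2_RK 3, highest adjusted p = 0.0563), Ier5 (without WT 2 or 3 or S6k2_RK 2, 0.0905) and Zfp36 (without WT 1 or 2 or S6k2_RK 2 or 3, 0.116).

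Part of the splicing-factor genes fell in S6k2_RK. Of 45 spliceosome and SR-protein genes 9 were lower and 1 was higher (median -0.17), from 5 without WT 1 or WT 2 to 9 without WT 3 or S6k2_RK 1. The SR proteins, which bind exons and recruit the spliceosome, accounted for most. Srsf2 (chromosome 11, 116849901 to 116853094) had 490.4, 549 and 355 normalized counts in WT 1, 2 and 3 and 238, 162 and 215 in S6k2_RK 1, 2 and 3 (-1.17 ± 0.18 SE, limma adjusted p = 0.000322). Srsf6 had 1331, 1259 and 1108 in WT and 769, 633 and 692 in S6k2_RK (-0.82 ± 0.11, adjusted p = 0.000109). For both the groups did not overlap, with S6k2_RK 2 lowest. Srsf11 (-0.98 ± 0.17), Srsf5 (-0.84 ± 0.20), Srsf10 (-0.65 ± 0.17) and Srsf3 (-0.57 ± 0.14) fell too, and so did Snrnp70, the U1-specific protein that recognises 5' splice sites (561, 431 and 392 normalized counts in WT and 249.9, 146 and 225 in S6k2_RK, -1.17 ± 0.18, adjusted p = 0.000322). In the core particles the Sm genes Snrpb (-0.13 ± 0.13), Snrpd2 (-0.19 ± 0.14) and Snrpe (-0.17 ± 0.22) did not pass, and Prpf19 rose (0.37 ± 0.12). That rise was lost in at least 1 fit without a library, and edgeR and DESeq2 called 0 genes of the list higher.

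Long non-coding RNAs of the nucleus were among the largest falls of abundant transcripts. Neat1 (chromosome 19, 5824708 to 5845478), the scaffold of paraspeckles, had 2154, 1658 and 1596 normalized counts in WT 1, 2 and 3 and 1087, 282 and 613 in S6k2_RK 1, 2 and 3 (-1.64 ± 0.29 SE, limma adjusted p = 0.0011), a call lost with the robust fit (adjusted p = 0.0746). Malat1, a neighbour of Neat1 on that chromosome that localises to nuclear speckles, had 4931, 3582 and 2865 in WT and 2509, 1316 and 2206 in S6k2_RK (-0.93 ± 0.24, adjusted p = 0.0167), a call lost without WT 1 or S6k2_RK 2 (highest adjusted p = 0.0978). S6k2_RK 2 was lowest in both. Rsrp1, an arginine- and serine-rich protein, had 769, 749 and 551 in WT and 308, 238 and 182 in S6k2_RK (-1.52 ± 0.16, adjusted p = 2.79e-05). The speckle-associated Pnisr (-1.23 ± 0.27) and Ccnl2 (-1.10 ± 0.22), a cyclin that binds splicing factors, fell, and so did Ogt (524, 544 and 396 in WT and 263, 144 and 146 in S6k2_RK, -1.45 ± 0.19, adjusted p = 0.000111), the O-GlcNAc transferase.

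Energy metabolism showed few calls. Nuclear-encoded oxidative phosphorylation had 2 of 77 higher, the ATP-synthase genes Atp5mc2 (0.41 ± 0.12; -0.11 with equal totals) and Atp5f1a (0.32 ± 0.093; -0.20), and 1 lower, Ndufb8 (-0.71 ± 0.20). Mitochondrially encoded transcripts took 1.4% ± 0.251 of counts in WT and 0.851% ± 0.254 in S6k2_RK (exact two-sided permutation p = 0.2). In glycolysis Pfkfb3, which makes the activator of phosphofructokinase, fell (183, 199 and 231 normalized counts in WT and 102, 125 and 66.8 in S6k2_RK, -1.09 ± 0.19, adjusted p = 0.00109), Hk1 fell (-0.67 ± 0.19) and Pdk2, a brake on pyruvate oxidation, rose (0.54 ± 0.11; 0.024 with equal totals). The clock gene Per2 fell (194, 218 and 148 in WT and 110.0, 117 and 71.7 in S6k2_RK, -0.91 ± 0.20, adjusted p = 0.00533), the 1 called gene of 18 in the circadian list. Calls lost with 1 library left out were those of Atp5mc2 (without WT 1 or 2 or S6k2_RK 2 or 3, highest adjusted p = 0.151), Atp5f1a (without WT 1 or 2 or S6k2_RK 2 or 3, 0.116), Ndufb8 (without WT 1 or 2 or S6k2_RK 2 or 3, 0.136) and Hk1 (without WT 2 or 3 or S6k2_RK 2 or 3, 0.132).

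Of the 15 largest rises under the naming rule 4 belonged to none of these groups. Tyro3, a receptor kinase, had 35.8, 37.8 and 57 normalized counts in WT and 102, 96.6 and 97.7 in S6k2_RK (1.19 ± 0.20, adjusted p = 0.000837), Thsd4, a matrix protein, 67.2, 36.9 and 68.8 in WT and 129, 149 and 106 in S6k2_RK (1.18 ± 0.22, adjusted p = 0.00179), Sstr2, a somatostatin receptor, 33.2, 35.1 and 32.5 in WT and 46, 88.6 and 86.6 in S6k2_RK (1.05 ± 0.25, adjusted p = 0.00998) and Xlr3a, an X-linked gene of a family with near-identical copies, 45.4, 32.4 and 62.9 in WT and 81, 159.7 and 69.2 in S6k2_RK (1.07 ± 0.30, adjusted p = 0.0249). Leaving out 1 library ended the call of Sstr2 (without S6k2_RK 3, highest adjusted p = 0.0596) and Xlr3a (without WT 1 or 2 or S6k2_RK 2, 0.139).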

How the data were processed

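Whole pancreas of 3 WT and 3 S6k2_RK mice was compared, with 3 Snd1 knock-in mice in the same fit. Per the labels' protocols RNA was polyA-selected and sequenced in strand-specific libraries. The deposited values are a signal of normalized counts, which the authors made by dividing the counts of a library by 1 size factor. DESeq2 and the build GRCm38 (mm10) are named in the submitters' processing notes, and the aligner, the counter and the annotation are not given in the sources used here. The table held 46078 genes, and all values of each library (100.0%) were whole multiples of 1 step within a relative tolerance of 1e-06, which gave back the reads. The step of S6k2_RK 1 was 0.9996, close to 1, and edgeR was also run without it, an alternative chosen after seeing the data. Sampling noise alone did not account for the differences among libraries of a group (chi-square over its degrees of freedom 8.16 to 22.2), so none was counted as a duplicate.

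Genes that averaged at least 10 normalized counts in the comparison were tested on log2(normalized count + 1) with limma 3.58.1 (R 4.3.3, trend, two-sided, Benjamini-Hochberg over all 11979 genes), and fold changes of low genes are understated on that scale. edgeR 4.0.16 (quasi-likelihood) called 562 genes higher and 852 lower on the recovered reads, and DESeq2 1.42.0 561 and 807. Alternatives covered the pseudocount, filter, scaling, fit, tool and each library left out. Genes with values were named by a rule: Rps6kb2, Rps6kb1, Rps6 and Snd1, up to 3 called members of each list with the smallest p and a mean of at least 50, the 15 largest rises and the 15 largest falls (falls with a mean of at least 100 in S6k2_RK and outside the blood-cell lists) whose groups did not overlap, and the 5 most abundant calls in each direction. Others were added after their values were seen, as further members of a list. Calls lost with 1 library left out were followed for the genes of the rule, and for these further members only where stated. The genes, lists and motifs were chosen with earlier results of these data known. Positions are those of the GRCm38 annotation, and promoters were taken from RefSeq. A few genes are not reported here.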

Additional observations from a re-analysis of the deposited data

How the results depend on the processing

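The scaling moved the split of calls most. With equal totals 36 genes were higher, 5976 lower and 1693 over 2-fold, against 626, 842 and 553, and with equal totals of genes outside the enzyme and mitochondrially encoded lists 109, 1885 and 849 (median gene -0.25). By construction these settings shift every gene by about the same amount. With a minimum mean of 50 there were 606 higher, 483 lower and 204 over 2-fold among 8149 genes tested, and with only the 6 libraries in the fit 362 and 684. Leaving out each library gave 249 to 869 higher, 521 to 1038 lower and 392 to 703 over 2-fold, and the cause was not tested. The enzymes' share of counts rose by 3.45 points without amylase and trypsinogen copies, against 5.12 with them. edgeR without S6k2_RK 1 called 724 higher and 978 lower. The other settings kept all 3 counts within 1.5 times.

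Of the 141 called genes under the naming rule 94 kept their call in all 6 fits without a library. Over all settings 2677 of 3002 values of named genes kept direction and call, 293 lost the call, 7 gained one and 25 changed sign, all of the last with equal totals: Rps6 (-0.18), Snd1 (-0.039), Erp27 (-0.081), Edem2 (-0.047), Srp68 (-0.028), Tmed10 (-0.025), Copz2 (-0.11), Asns (-0.056), Qars1 (-0.0065), Rpl4 (-0.037), Rpl10 (-0.023), Rpl6 (-0.12), Mrpl2 (-0.077), Mrps34 (-0.039), Eif3l (-0.031), Eef1g (-0.074), Tpt1 (-0.12), Ncl (-0.19), Gstm1 (-0.12), Gclm (-0.12), Fdft1 (-0.11), Slc39a8 (-0.037), Atp5mc2 (-0.11), Atp5f1a (-0.20) and H1f0 (-0.093). Among the genes in the text that the naming rule chose, the calls lost with edgeR were those of Rps6, Mrps34, Tpt1, Ncl, Gclm and Atp5f1a. With DESeq2 they were those of Mrpl2, Mrps34, Gclm, Fdft1, Adipoq, Cfd, Slc39a8, Ndufb8, Prss1 and Malat1. With the robust fit they were those of Sesn1, Thrsp, Adipoq, Cfd, Ccl21a, Ndufb8, Prss1, Neat1, Gpsm1, Pnisr and Malat1. Genes added after their values were seen are not covered here, and some of their calls were lost too. Of 1050 list medians 93 moved by more than the spread between replicates. With the replicate block 540 genes were higher, 785 lower and 523 over 2-fold. Deviations of same-numbered libraries correlated at 0.0871, -0.179 and -0.102, so the numbers were not taken as a pairing. The 3 animals per group limit the precision, and genes with fewer than 10 normalized counts on average were not tested in the main comparison.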

Other observations

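A further group was put together after the values were seen, so its counts are a description with no test of the group. It holds 30 genes of nuclear speckles and of RNA-binding proteins related to SR proteins, and some of them were named above. Of these 25 were lower in S6k2_RK and 0 higher, the median was -0.81, and the groups did not overlap for 24. Among all genes tested 7.03% were lower, and the groups did not overlap for 28.4%. Leng8 had 295, 286 and 254 normalized counts in WT and 134, 45.6 and 81.6 in S6k2_RK (-1.79 ± 0.25, adjusted p = 0.000153). Tia1, which binds RNA and forms stress granules, had 107, 91 and 83.6 in WT and 44, 20.1 and 29.7 in S6k2_RK (-1.62 ± 0.26, adjusted p = 0.000635), and Ccnl1, a cyclin of splicing kinases, had 199.8, 196 and 124 in WT and 84, 42.9 and 48.2 in S6k2_RK (-1.58 ± 0.26, adjusted p = 0.000774). The helicases Ddx17 (-1.02 ± 0.11) and Ddx5 (-0.77 ± 0.12), the splicing regulator Hnrnph1 (-0.91 ± 0.14) and the speckle scaffolds Srrm2 (-0.88 ± 0.11) and Son (-0.57 ± 0.11) fell as well. Clk2, Clk3, Srrm1, Tra2a and Tra2b did not pass. Leaving out 1 library ended the call of Clk4 (without WT 1 or 2 or S6k2_RK 2, highest adjusted p = 0.0755), Luc7l2 (without WT 1, 0.0733) and Luc7l3 (without WT 1 or 2 or S6k2_RK 2 or 3, 0.204).

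A second group chosen in the same way holds 12 genes that glucocorticoids induce in many tissues, of which 4 were lower and 0 higher (median -0.56). The S6k2_RK and WT libraries did not overlap for 3 of the 12, against 28.4% of all genes tested. Fkbp5, a chaperone partner of the glucocorticoid receptor, had 411, 404 and 199.6 normalized counts in WT and 104, 165 and 82.8 in S6k2_RK (-1.51 ± 0.25, adjusted p = 0.000606). Zbtb16 (-2.58 ± 0.58, adjusted p = 0.0073), Glul (-1.17 ± 0.21, adjusted p = 0.00146) and Tsc22d3 (-0.69 ± 0.19, adjusted p = 0.0258) fell too, and the other 8 (Klf9, Sgk1, Dusp1, Errfi1, Cebpd, Pdk4, Ddit4 and Per1) did not pass. The call of Tsc22d3 was lost without WT 1 or 2 or S6k2_RK 1 or 3 (highest adjusted p = 0.141).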
